A study of Mus musculus with 4 samples.

Results

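Collagens are the structural proteins of the extracellular matrix, and mice carry a large family of genes for their chains. The members described here were the 44 genes, of 31053 features in the count tables, whose symbol has the form Col, a type number, the letter a and a chain number. They were taken by name alone and not by any measured value. Symbols of this form name the chain, so Col4a1 encodes the first chain of type IV collagen. The study compared brain cells of male C57/BL6 mice, 8 weeks old by the labels, after sham surgery or after transient middle cerebral artery occlusion (tMCAO), in which a filament blocks a main brain artery and is then withdrawn so that blood flow returns. Cells of the hemisphere on the operated side were profiled by droplet single-cell RNA-seq in 4 libraries, which were sham and tMCAO at day 1, day 3 and day 7. Each group had 1 library, the number of mice in each was not stated in the sources used here, and the design text puts the sham library at day 7, whereas a scheme of the sampling lists day 0 beside days 1, 3 and 7, so the time of the library that all ratios refer to is uncertain. No allele, transgene or further agent was named for any group.

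With 1 library per group, no difference between groups could be tested against the spread between animals, and no p-value was computed. The intervals given are exact 95% intervals that cover counting error only, so a ratio whose interval excludes 1 describes these libraries and not the conditions. A unique molecular identifier (UMI) marks 1 captured RNA molecule, so the assay counts each molecule once whatever the length of its transcript. Levels are given as UMIs of a gene per 1000000 UMIs of the cell class (CPM), and a ratio is the CPM in a tMCAO library divided by the CPM in the sham library. A gene is called past 2-fold where that ratio, after 10 CPM is added to both levels, is at least 2 either way and both libraries together hold at least 50 of its UMIs.

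The tables held 59429 cells, of which 44360 passed the limits of the study on genes and mitochondrial UMIs, and 42356 of these were placed in a class by markers that include no collagen gene. In all 4 libraries these limits left fewer cells than the study states it kept, so the cells described here are not exactly its own. Classes carry the suffix -like because they rest on markers only. From sham to day 7 in order, the libraries held 24, 103, 34 and 23 fibroblast-like cells, 727, 752, 839 and 1590 vascular smooth muscle-like cells, 318, 713, 695 and 636 pericyte-like cells, and 4770, 6756, 5684 and 9071 endothelial-like cells. A further group was gated on Prg4, Nov and Slc47a1 and held 27, 98, 18 and 23 cells. All 10 fibroblast markers were detected in the fibroblast-like cells, summing to 21743 to 26359 CPM, though Dpt was listed at 0 at days 3 and 7. Single markers in that sum went different ways, with Dcn at 13119, 4215, 4579 and 5114 CPM, Apod at 8811, 13292, 13472 and 15800 CPM, Igfbp6 at 65.0, 332, 59.2 and 76.5 CPM and Dpep1 at 18.6, 155, 9.87 and 138 CPM from sham to day 7. The part of a different make-up of this class in its collagen ratios was not tested. The same cells also held pericyte markers at 8310, 4581, 6573 and 6874 CPM. Nearly all of that was Vtn, and the other 7 pericyte markers together were at 204, 126, 257 and 214 CPM, where Higd1b was listed at 0 in 3 of the 4 libraries. Between any pair of libraries, 12 to 50 cell barcodes of the kept cells were shared.

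The limit of 3000 genes per cell bears on every collagen level below. It left 35.3% of the deposited collagen UMIs in the sham library, 41.6% at day 1, 41.0% at day 3 and 45.2% at day 7. With a limit of 6000 genes the shares were 72.3%, 93.5%, 93.7% and 81.9%. Of 173 ratios to sham of summed collagen groups, 27 differed by more than 1.5 times between the 2 limits. Values with the limit of 6000 genes are therefore given beside several of those it moved or turned.

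Collagen chains assemble 3 at a time into a triple helix, and the families differ in what the helices build. Fibrillar collagens (types I, II, III, V, XI, XXIV and XXVII) form the banded fibrils that resist tension. Basement membrane collagens (type IV and the multiplexins XV and XVIII) form or bind the sheet that surrounds each brain vessel and lies between endothelium, pericytes and astrocyte endfeet. In the healthy brain, fibrils are sparse and are found mainly in the meninges and around the larger vessels, where fibroblasts lie.

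Across the kept cells, the 44 genes gave 126553 UMIs, and 91030 of these came from the 8 basement membrane genes against 18232 from the 11 fibrillar genes. The other 5 groups were small. The 9 fibril-associated genes gave 8288 UMIs, the 6 type VI genes 3308, the 3 genes of the type VIII and X networks 2907, the 4 transmembrane genes 2032 and the remaining 3 genes 756. The 2 large groups had different main sources. Endothelial-like cells, 63.1% of the sham cells, held 66.3% of the basement membrane UMIs of that library and 12.5% of its fibrillar UMIs. Fibroblast-like cells, 0.317% of the sham cells, held 17.2% of the fibrillar UMIs, and at day 1, when they were 0.770% of the cells, they held 28.8%. Vascular smooth muscle-like cells held 26.8%, 15.2%, 24.6% and 43.0% of the fibrillar UMIs from sham to day 7.

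**Figure D1:**
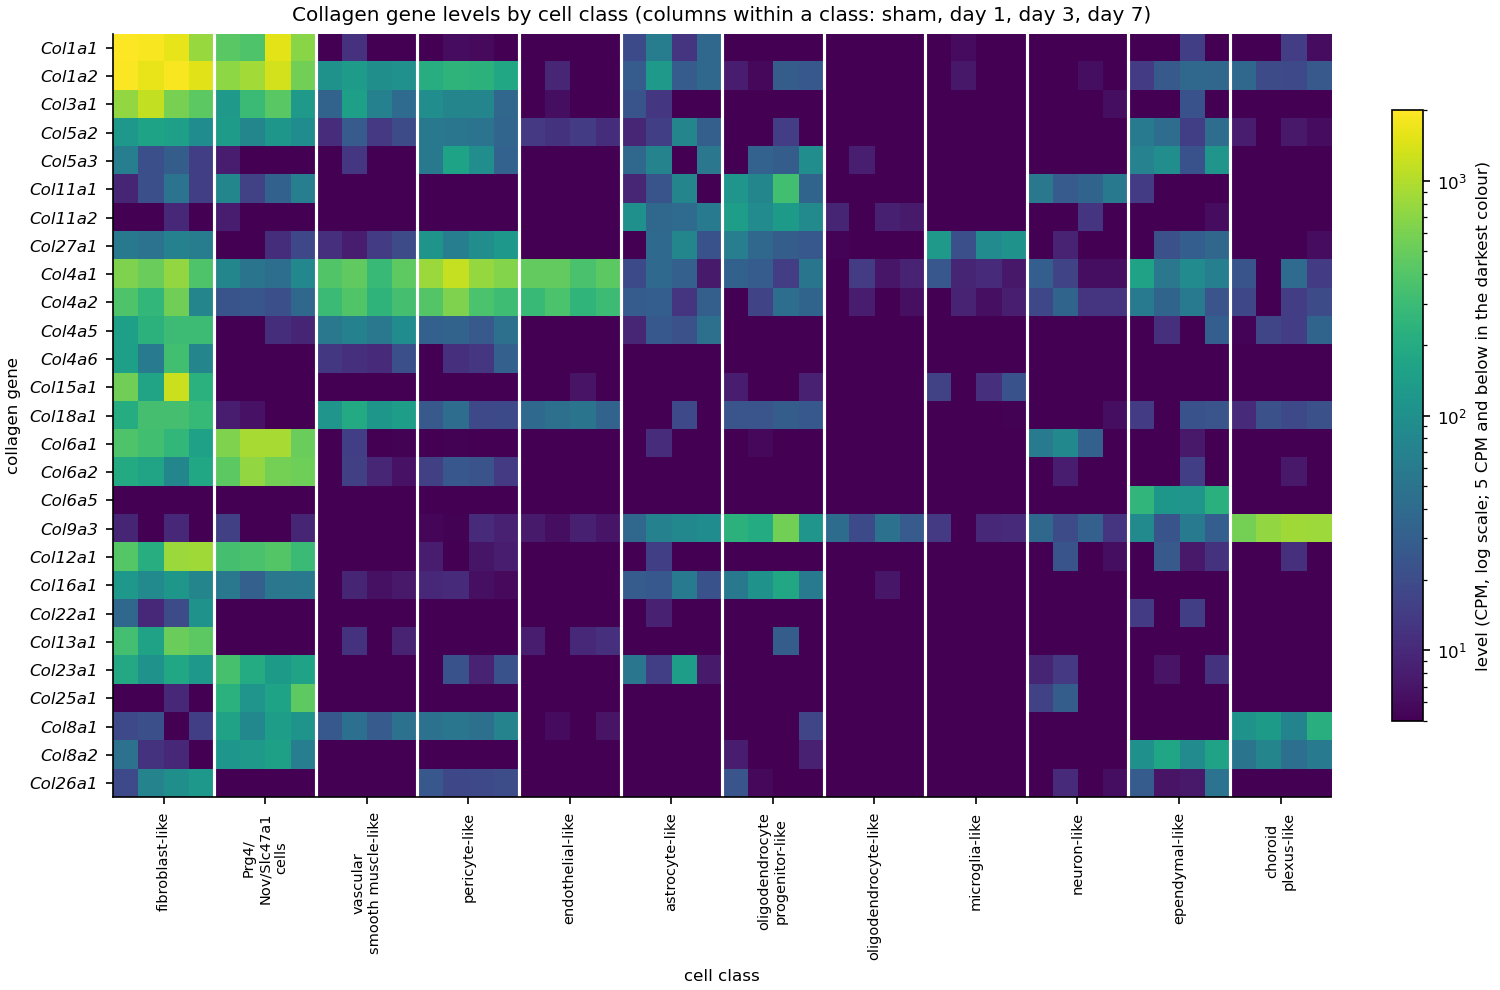
Level of the 27 collagen genes with at least 100 CPM in a class of at least 20 cells, by cell class and library, in CPM on a log colour scale, with the columns of a class in the order sham, day 1, day 3, day 7. Type I chains are brightest in fibroblast-like cells, Col4a1 and Col4a2 in fibroblast-like and vessel wall cells, and Col9a3 in choroid plexus-like cells. The day 3 column rests on 18 cells for the Prg4/Nov/Slc47a1 cells and on 19 for the oligodendrocyte progenitor-like cells.

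Fibrillar collagens were highest in the fibroblast-like cells of all 4 libraries. Their summed level there was 4977 CPM in sham (95% interval 4564 to 5416), 5020 CPM at day 1 (4806 to 5241), 4412 CPM at day 3 (4012 to 4840) and 3031 CPM at day 7 (2624 to 3484). The day 1 and day 3 ratios to sham were 1.01 (0.917 to 1.11) and 0.886 (0.780 to 1.01), and the day 7 library lay lowest, with a ratio of 0.609 (0.515 to 0.718). The day 1 ratio near 1 joined opposite differences. Day 1 cells held 4081 CPM against 6725 CPM in sham among those with more than 1000 and up to 2000 genes, from 46 and 12 cells, but 5645 against 4002 CPM in the bin up to 3000 genes, from 34 and 10 cells, and the intervals did not overlap in either bin. The order of the libraries did not hold with the limit of 6000 genes. The levels were then 3705 CPM in sham, 6564 CPM at day 1, 3404 CPM at day 3 and 7329 CPM at day 7. The day 7 library turned from the lowest to the highest, at 1.98 times sham (1.80 to 2.17), and day 1 was at 1.77 times sham (1.64 to 1.91).

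The cells that made this difference were few. Fibroblast-like cells with more than 3000 and up to 6000 genes numbered 9 in sham, 13 at day 1, 7 at day 3 and 5 at day 7. Their fibrillar level was 2427, 9980, 2106 and 11314 CPM in the same order. Among them, single cells ran from 787 to 4104 CPM in sham and from 9033 to 14728 CPM at day 7, so that the cells of these libraries did not overlap, whereas day 1 spanned 1053 to 18741 CPM and day 3 spanned 934 to 3815 CPM. Cells of 1 library share their source and are not replicates.

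Type I collagen, the main fibril former, is built from the chains of Col1a1 and Col1a2. In fibroblast-like cells Col1a1 was at 1959, 1888, 1599 and 796 CPM from sham to day 7. Col1a2 was at 1940, 1657, 1875 and 1516 CPM. Both chains thus stood near 2000 CPM in sham and Col1a1 alone was past 2-fold lower at day 7, at 0.406 times sham (0.294 to 0.553) against 0.781 (0.609 to 0.997) for Col1a2. With the limit of 6000 genes the same day 7 ratios were 1.63 for Col1a1 and 1.93 for Col1a2, and both genes were then above sham at day 1, at 1.52 and 1.45 times. Col3a1, the chain of type III collagen, was at 752, 1143, 582 and 444 CPM in these cells and was highest at day 1, at 1.52 times sham (1.20 to 1.95), or 3.24 times with the limit of 6000 genes. Its day 7 ratio turned from 0.59 to 3 times sham with that limit.

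The balance of the type I chains also differed between classes. Fibroblast-like cells of the sham library held 211 Col1a1 UMIs and 209 Col1a2 UMIs, a ratio of 1.01 (0.830 to 1.23). Pericyte-like cells of that library held 2 Col1a1 UMIs against 185 Col1a2 UMIs, a ratio of 0.0108 (0.0013 to 0.0396). The ratio in pericyte-like cells stayed between 0.004 and 0.025 in the tMCAO libraries, where 1 to 9 Col1a1 UMIs faced 250 to 360 Col1a2 UMIs. Vascular smooth muscle-like cells held 3 Col1a1 and 524 Col1a2 UMIs in sham, a ratio of 0.00573 (0.00118 to 0.0168), and 36 and 413 at day 1, a ratio of 0.0872 (0.0602 to 0.123). Mural cells, the smooth muscle cells and pericytes that wrap vessels, therefore carried Col1a2 with little Col1a1 in every library. The Col1a2 UMIs of the sham pericyte-like cells were spread over 128 of 318 cells, with at most 5 in any 1 cell. The 36 Col1a1 UMIs of the day 1 smooth muscle-like cells lay in 11 of 752 cells.

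After thinning each cell to 1000 UMIs, 66.7% of the sham fibroblast-like cells had a Col1a1 UMI (exact binomial interval 44.7% to 84.4%) and 63.5%, 59.4% and 73.9% did at days 1, 3 and 7. The same share was 0.346% in sham pericyte-like cells, 0.142% in sham smooth muscle-like cells and 0 of 4163 in sham endothelial-like cells. That 0 allows up to 0.0721% of cells with a UMI at this depth and does not limit the share that expresses the gene. Before thinning, the sham shares were 95.8%, 0.629%, 0.413% and 0.147%, at median depths of 3916, 2753, 7024 and 2856 UMIs per cell. In oligodendrocyte-like cells, a class that should lack Col1a1, 0 of 751 thinned sham cells had a Col1a1 UMI, which allows up to 0.399%. This limit lies above the thinned shares of pericyte-like and smooth muscle-like cells, so it cannot set them apart from background. A Col1a1 UMI was thus seen in most fibroblast-like cells and in few cells of the other vessel classes.

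The window around the Col1a2 start, 250 bases before to 50 after it, is printed because this chain was seen both with and without its partner. Windows of Col3a1 and Col5a3 are printed with it because these are the fibrillar genes that were past 2-fold higher at day 1 in mural cells, as described next. All are from RefSeq on GRCm38.p6, written 5′ to 3′ on the strand of the gene, with capitals marking 3 motifs on either strand. These are the TATA box, spelled TATAAA, the CCAAT box, spelled CCAAT, and the GC box, spelled GGGCGG, and no letter belongs to more than 1 match. Col1a2 lies on the forward strand at chr6:4505368-4505667, Col3a1 on the forward strand at chr1:45311288-45311587, and Col5a3 on the reverse strand at chr9:20815018-20815317.
Col1a2: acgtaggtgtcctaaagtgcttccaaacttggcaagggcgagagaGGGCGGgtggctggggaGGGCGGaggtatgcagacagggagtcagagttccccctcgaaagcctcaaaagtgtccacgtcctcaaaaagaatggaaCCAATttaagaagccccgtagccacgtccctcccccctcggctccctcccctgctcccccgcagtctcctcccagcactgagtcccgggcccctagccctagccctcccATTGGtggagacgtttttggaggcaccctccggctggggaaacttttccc
Col3a1: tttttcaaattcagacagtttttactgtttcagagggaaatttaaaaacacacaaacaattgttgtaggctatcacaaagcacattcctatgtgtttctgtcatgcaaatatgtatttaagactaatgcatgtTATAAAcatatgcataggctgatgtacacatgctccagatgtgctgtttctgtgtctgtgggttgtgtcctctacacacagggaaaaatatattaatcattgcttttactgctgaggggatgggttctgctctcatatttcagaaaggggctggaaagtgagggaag
Col5a3: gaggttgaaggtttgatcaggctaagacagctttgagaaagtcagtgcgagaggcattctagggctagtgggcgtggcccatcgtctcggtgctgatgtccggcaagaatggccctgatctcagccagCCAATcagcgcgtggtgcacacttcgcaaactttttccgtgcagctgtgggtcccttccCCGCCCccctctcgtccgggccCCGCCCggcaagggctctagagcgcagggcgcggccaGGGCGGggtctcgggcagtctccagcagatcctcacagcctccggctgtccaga
The Col3a1 window held 1 TATA box and neither of the other motifs, and was 37.7% G or C. The Col1a2 window held 2 CCAAT boxes and 2 GC boxes and the Col5a3 window 1 and 3, at 61.0% and 63.3% G or C. Over 32851 such windows of all genes the share with a TATA box was 13.6%, with a CCAAT box 37.4% and with a GC box 35.7%, counting both strands. Over the 38 windows found for 35 collagen genes the shares were 13.2%, 34.2% and 60.5%. A match is a run of letters and not a shown binding site.

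In mural cells the fibrillar sum was lower than in fibroblast-like cells, and 2 fibrillar genes, Col3a1 in smooth muscle-like and Col5a3 in pericyte-like cells, were past 2-fold above sham at day 1. Vascular smooth muscle-like cells held fibrillar collagens at 173, 358, 212 and 202 CPM from sham to day 7, and day 1 was at 2.07 times sham (1.89 to 2.27). Most of that difference lay in Col3a1, at 33.5, 149, 69.8 and 40.8 CPM, which was 4.44 times sham at day 1 (3.71 to 5.35) and 2.08 times at day 3 (1.72 to 2.53). The fibrillar difference at day 1 was uneven over bins of genes per cell. It was 402 against 396 CPM in sham up to 1000 genes and 292 against 218 CPM up to 2000 genes, with overlapping intervals in both. The second of these bins held 631 of the 752 day 1 cells. In the bin up to 3000 genes, with 95 day 1 and 618 sham cells, it was 616 against 168 CPM. With the limit of 6000 genes the fibrillar sum was at 205, 397, 478 and 236 CPM, with day 3 at 2.33 times sham (2.18 to 2.50) and day 1 at 1.93 times (1.79 to 2.09). The 77 smooth muscle-like cells of day 3 with more than 3000 genes held 1749 fibrillar UMIs, 47.6% of them in 1 cell. Without the cell with most fibrillar UMIs in each library, an alternative chosen after seeing the data, day 3 was at 336 CPM and 1.68 times sham (1.56 to 1.81), below day 1 at 369 CPM and 1.85 times. Col3a1 with the limit of 6000 genes was at 3.38 times sham at day 1 (2.93 to 3.91) and 3.08 times at day 3 (2.70 to 3.53), or 3.42 and 2.53 times without those cells. Under the limit of 3000 genes it was found in 174 of 752 day 1 cells, and without the cell that held most of it the day 1 level was 140 CPM. Summed fibroblast markers in the smooth muscle-like cells were 41.3, 68.3, 61.0 and 58.2 CPM and summed endothelial markers 237, 828, 423 and 557 CPM, and both were highest at day 1, as Col3a1 was. Their part in the Col3a1 level was not tested.

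Pericyte-like cells held fibrillar collagens at 537, 614, 558 and 417 CPM, with ratios of 1.14 (1.02 to 1.29), 1.04 (0.929 to 1.16) and 0.777 (0.687 to 0.880). The day 1 direction depended on the number of genes per cell. Day 1 cells held 562 CPM against 1003 CPM in sham in the bin up to 1000 genes, from 427 and 69 cells. They held 592 against 570 CPM up to 2000 genes, with overlapping intervals, and 1034 against 370 CPM up to 3000 genes. Col5a3, a chain of type V collagen, which starts and limits the width of fibrils, was at 55.9, 162, 93.6 and 32.9 CPM. It was 2.90 times sham at day 1 (2.11 to 4.04), still above sham at day 3 and below it at day 7. Fibroblast-like cells of day 1 held it at 21.8 CPM, from 9 UMIs, so this gene did not follow the fibrillar sum at day 1. In sham it was found in 7 of 24 fibroblast-like and 37 of 318 pericyte-like cells. After thinning to 1000 UMIs these shares were 12.5% and 4.84%. In pericyte-like cells its day 1 UMIs came from 121 of 713 cells with at most 6 in any 1 cell. Col3a1 in these cells was at 95, 75.8, 76.2 and 36.5 CPM, and at day 7 it was 0.384 times sham (0.265 to 0.551). Col27a1, a chain of type XXVII collagen, was at 111, 65.3, 93.6 and 122 CPM and was lowest at day 1. Summed microglia markers in the pericyte-like cells were 93.9, 243, 114 and 82.6 CPM and were highest at day 1, and their part was not tested. Summed fibroblast markers there were 736 to 794 CPM in all 4 libraries.

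Endothelial-like cells held little fibrillar collagen, at 24.6, 35.7, 26.2 and 20.2 CPM, with ratios of 1.45 (1.28 to 1.66), 1.07 (0.928 to 1.23) and 0.821 (0.716 to 0.942). Up to 1000 genes per cell, day 1 was at 15.5 CPM (11.4 to 20.7) against 29.5 CPM in sham (20.6 to 40.8). Up to 2000 genes it was at 31.4 against 29.2 CPM, with overlapping intervals, and up to 3000 genes at 49.2 against 21.6 CPM. The arterial zone held more than the capillary zone, with 120, 109, 77.3 and 69.9 CPM against 9.34, 30.0, 10.2 and 10.0 CPM. In the venous zone the day 1 library was at 0.429 times sham. In the capillary zone the day 1 library stood at 3.21 times sham (2.60 to 4.00). Its Col3a1 level there was 7.43 CPM against 1.61 CPM in sham, but 32 of 86 Col3a1 UMIs came from 1 cell, and without that cell the level was 4.67 CPM. Col1a2 in the same zone was at 10.2 CPM at day 1 against 2.66 CPM in sham, from 66 of 5040 cells.

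**Figure D2:**
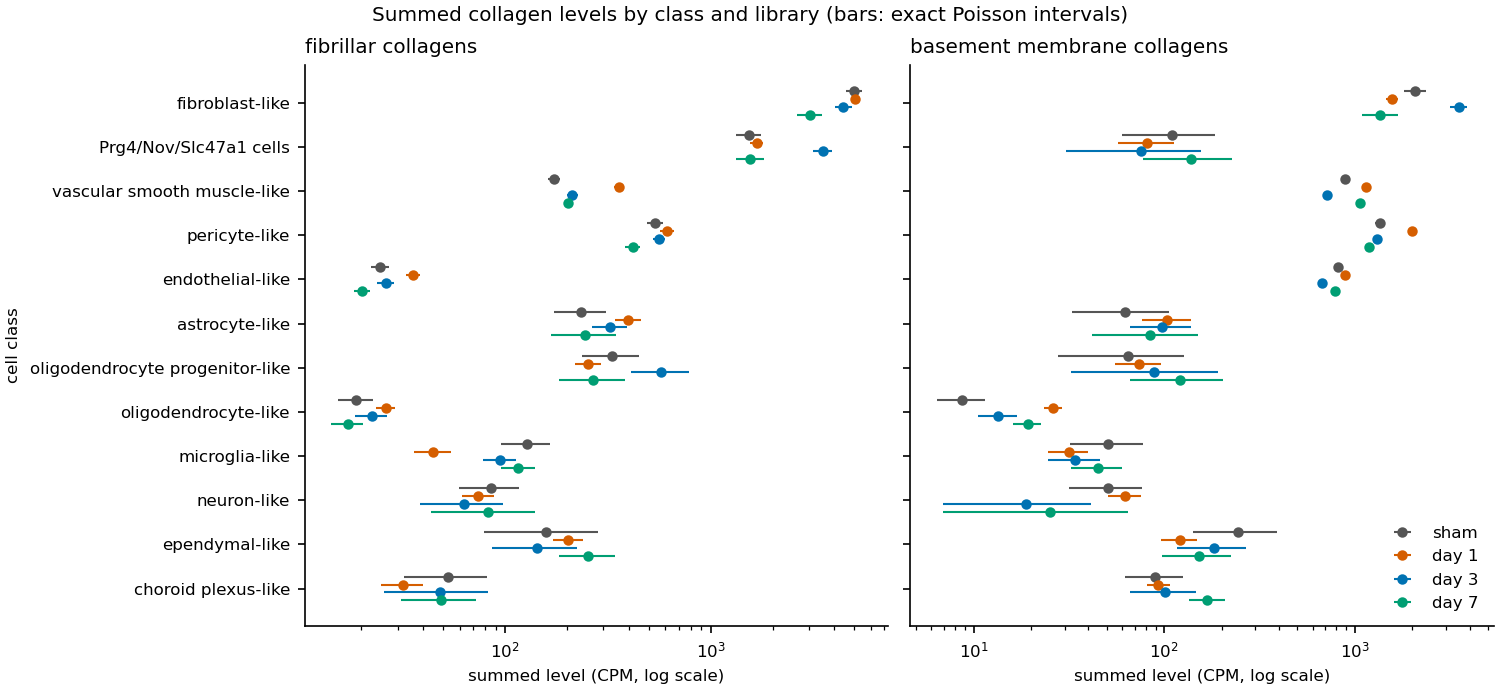
Summed level of the 11 fibrillar (left) and 8 basement membrane genes (right) by cell class and library, in CPM on a log axis. Points are 1 library each and bars are exact Poisson intervals. Fibroblast-like cells lead in the fibrillar sum, whereas the vessel wall classes lie closest to them in the basement membrane sum.

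Type IV collagen is the network former of all basement membranes, and its common helix joins chains of Col4a1 and Col4a2. Both genes lie on chromosome 8 of GRCm38, with Col4a1 on the reverse strand at chr8:11198423-11312826 and Col4a2 on the forward strand at chr8:11312805-11449287. Their annotated 5′ ends overlap by 22 bases, so they are transcribed away from each other. This pair gave most of the collagen UMIs in the data, 46969 for Col4a1 and 32541 for Col4a2, and its RefSeq windows on GRCm38.p6 are therefore printed. The Col4a1 window is chr8:11312777-11313076 on the reverse strand and the Col4a2 window chr8:11312555-11312854 on the forward strand, with capitals as above.
Col4a1: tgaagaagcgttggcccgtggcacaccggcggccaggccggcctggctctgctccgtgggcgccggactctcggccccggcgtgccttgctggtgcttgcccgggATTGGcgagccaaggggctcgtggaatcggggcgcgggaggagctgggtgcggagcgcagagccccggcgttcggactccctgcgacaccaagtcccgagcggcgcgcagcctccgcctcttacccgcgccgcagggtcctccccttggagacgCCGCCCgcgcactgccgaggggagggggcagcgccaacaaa
Col4a2: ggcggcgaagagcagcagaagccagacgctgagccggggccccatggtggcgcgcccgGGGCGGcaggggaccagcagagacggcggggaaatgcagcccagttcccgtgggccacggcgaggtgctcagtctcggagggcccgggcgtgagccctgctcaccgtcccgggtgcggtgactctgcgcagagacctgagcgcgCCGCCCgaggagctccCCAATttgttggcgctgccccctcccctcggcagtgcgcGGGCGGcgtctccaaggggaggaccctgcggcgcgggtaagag
The last 78 bases of each window are the reverse complement of the other's, and neither window held a TATA box. The Col4a1 window held 1 CCAAT box and 1 GC box and the Col4a2 window 1 and 3, at 74.0% and 73.7% G or C. Of 9 collagen pairs within 200 kb of each other, 3 were head to head like this one, and all 3 join type IV genes. The other 2 were Col4a4 with Col4a3, 71 bases apart, and Col4a6 with Col4a5, 1308 bases apart.

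Col4a1 and Col4a2 were abundant in all vessel wall classes. In endothelial-like cells Col4a1 was at 474, 471, 361 and 438 CPM from sham to day 7 and Col4a2 at 290, 365, 254 and 303 CPM. In pericyte-like cells Col4a1 was at 808, 1189, 783 and 653 CPM and Col4a2 at 402, 630, 370 and 311 CPM. In vascular smooth muscle-like cells Col4a1 was at 398, 464, 282 and 454 CPM and Col4a2 at 300, 398, 244 and 345 CPM. Pericyte-like cells thus had the highest Col4a1 level of these 3 classes in every library. Microglia-like cells, which should lack the gene, held Col4a1 at 25.4, 9.28, 10.5 and 7.28 CPM. After thinning to 1000 UMIs, 50.9% of sham pericyte-like cells, 39.2% of sham endothelial-like cells and 30.8% of sham smooth muscle-like cells had a Col4a1 UMI, against 0.533% of sham oligodendrocyte-like cells. Before thinning these shares were 78.3%, 70.6%, 86.1% and 3.12%, and the last 2 classes were the most deeply sequenced of the 4, at medians of 7024 and 7887 UMIs per cell.

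Pericyte-like cells held more basement membrane collagen RNA at day 1 than in sham. Their summed level was 1353 CPM in sham (1278 to 1431), 1988 CPM at day 1 (1907 to 2071), 1313 CPM at day 3 (1256 to 1371) and 1192 CPM at day 7 (1135 to 1251). The day 1 ratio was 1.47 (1.37 to 1.58) and the others were 0.970 (0.903 to 1.04) and 0.881 (0.817 to 0.95). Col4a1 and Col4a2 moved together, at 1.47 and 1.57 times sham at day 1. With the limit of 6000 genes the day 1 ratio of the sum was 1.54, since only 2 to 12 pericyte-like cells per library were added. In cells with up to 1000 genes, which were 427 of the day 1 cells and 69 of the sham cells, the level was 1649 CPM at day 1 against 1858 CPM in sham. Those with more than 1000 and up to 2000 genes held 2173 against 1291 CPM. Median depth in these cells was 2753 UMIs in sham, 1358 at day 1, 2152 at day 3 and 2020 at day 7, and the part of depth in the day 1 level was not tested.

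In endothelial-like cells the summed basement membrane level was 812 CPM in sham (798 to 826), 889 CPM at day 1 (875 to 903), 675 CPM at day 3 (663 to 688) and 785 CPM at day 7 (773 to 796). Day 1 was thus 1.09 times sham (1.07 to 1.12), day 3 0.832 times (0.811 to 0.853) and day 7 0.966 times (0.944 to 0.988). The direction at day 1 depended on the number of genes per cell. Among cells with up to 1000 genes the level was 1212 CPM in sham and 923 CPM at day 1, and in the next bin, up to 2000 genes, it was 1041 and 781 CPM. In the bin up to 3000 genes it was 647 CPM in sham and 992 CPM at day 1, and in the bin up to 6000 genes it was 600 and 1184 CPM. The level was lower in each richer bin in sham, day 3 and day 7, whereas at day 1 it was highest in the richest bin. The limit of 6000 genes gave a day 1 ratio of 1.41 (1.39 to 1.44). With every cell weighing equally, the day 1 ratio was 0.922. Day 3 was below sham in all 4 bins, at 789, 751, 574 and 512 CPM.

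Different endothelial clusters also made up the libraries, in a clustering that left out the collagen genes and was examined in this way after seeing the data. It made no correction between libraries, so its clusters may also follow the library. Clusters 5, 7 and 10 held 1000, 1444 and 1238 of 4808 clustered endothelial cells in sham but 322, 36 and 143 of 6592 at day 1. Clusters 4 and 6 held 14 and 82 cells in sham but 1809 and 2337 at day 1. Cluster 4, which was 27.4% of the day 1 endothelial cells, had too few sham cells to be compared. Of the 10 clusters with at least 20 cells in both libraries, the day 1 level of basement membrane collagens was above sham in 2 and below it in 4 by intervals that exclude 1, with ratios from 0.729 to 1.61. At day 3 it was above sham in 0 and below it in 6 of 10 (0.567 to 1.09), and at day 7 above in 1 and below in 3 (0.761 to 1.11). The day 1 ratio above sham thus did not hold in most clusters. Markers of other cells in the endothelial-like class moved as well, with pericyte markers at 121, 244, 166 and 124 CPM, microglia markers at 57.3, 152, 105 and 80.8 CPM and fibroblast markers at 187, 223, 538 and 176 CPM from sham to day 7. Their part in the collagen levels of this class was not tested.

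**Figure D3:**
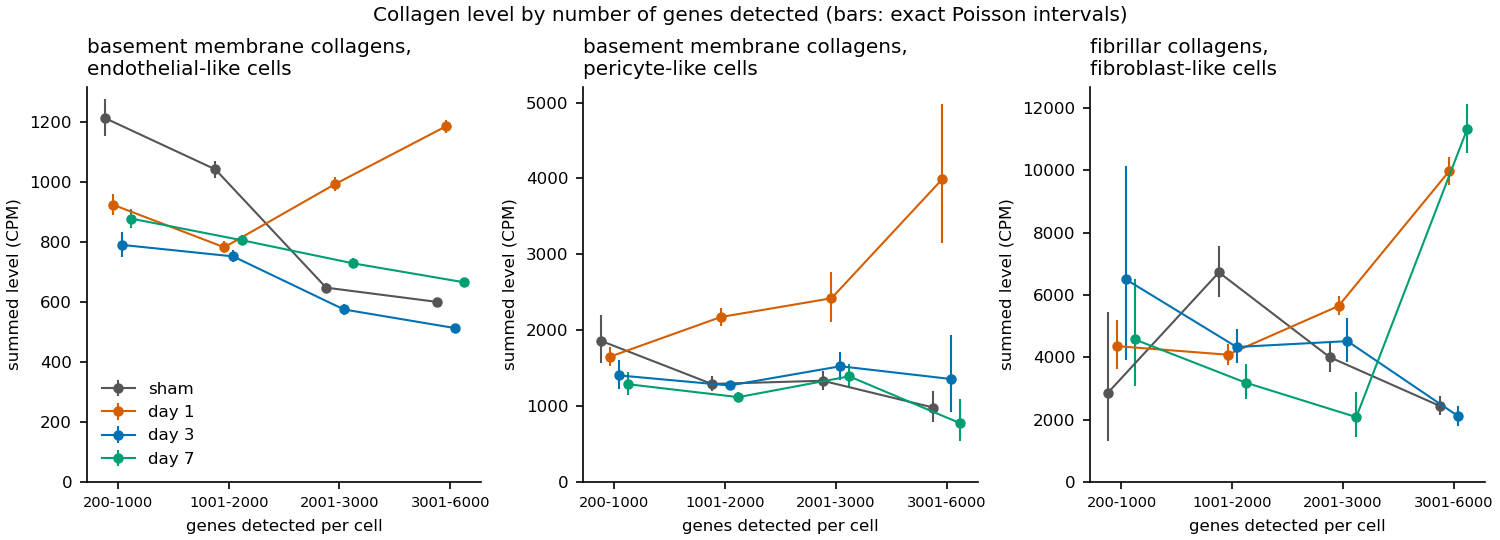
Summed collagen level (CPM) against the number of genes detected per cell, for basement membrane genes in endothelial-like and pericyte-like cells and for fibrillar genes in fibroblast-like cells, gated with the limit of 6000 genes. Points are 1 library each and bars are exact Poisson intervals. In endothelial-like cells the day 1 points go from 923 CPM in the poorest bin to 1184 CPM in the richest while sham goes from 1212 to 600 CPM.

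The ratio of the 2 main type IV chains differed between classes and, in endothelium, between libraries. In sham, Col4a1 UMIs outnumbered Col4a2 UMIs 2.01 times in pericyte-like cells (1.77 to 2.29), 1.63 times in endothelial-like cells (1.57 to 1.69) and 1.32 times in vascular smooth muscle-like cells (1.24 to 1.42), with no overlap between these intervals. In pericyte-like cells the ratio stayed at 1.89, 2.12 and 2.10 at days 1, 3 and 7. In endothelial-like cells it was 1.29 at day 1 (1.25 to 1.34), 1.42 at day 3 (1.37 to 1.48) and 1.45 at day 7 (1.40 to 1.49), below sham in all 3 tMCAO libraries. Venous endothelial-like cells were also below sham in all 3 tMCAO libraries, with 2.10 in sham (1.71 to 2.60) and 1.51, 1.33 and 1.30 at days 1, 3 and 7. Capillary cells were at 1.61, 1.25, 1.41 and 1.44 from sham to day 7. Arterial cells were at 1.64 (1.45 to 1.85), 1.35, 1.60 (1.40 to 1.83) and 1.45, with each day's interval overlapping sham. Vascular smooth muscle-like cells were at 1.17, 1.16 and 1.31 at days 1, 3 and 7, also with overlapping intervals. Col4a2 relative to Col4a1 was therefore higher in the tMCAO libraries than in sham in endothelial-like cells as a class, but not clearly in the arterial zone. In the class, Col4a1 itself was 0.994 times sham at day 1 and Col4a2 1.26 times (1.21 to 1.31).

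**Figure D4:**
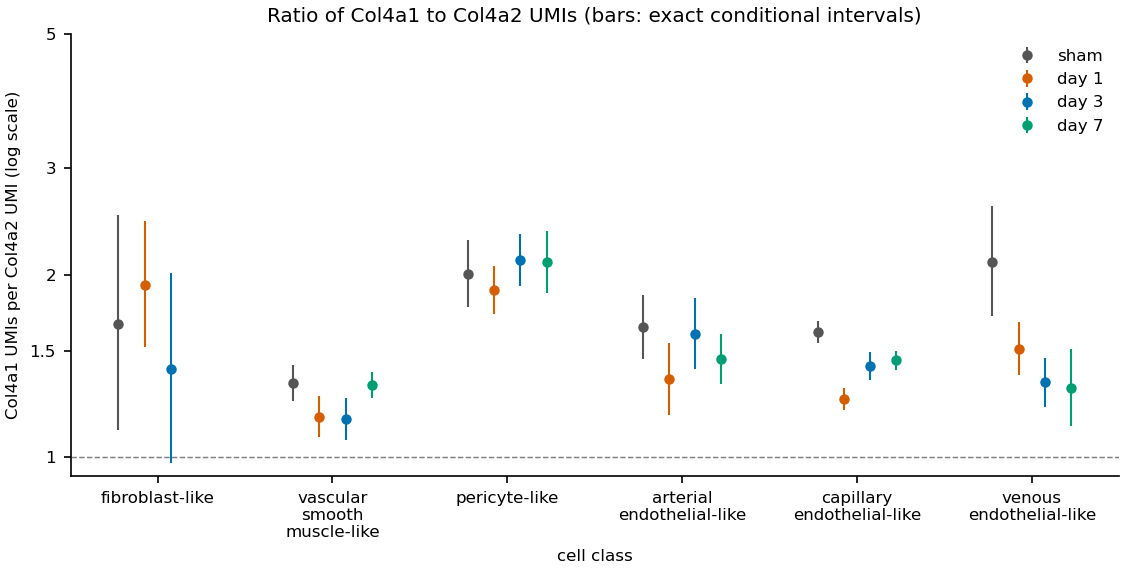
Ratio of Col4a1 to Col4a2 UMIs (log axis) in 6 cell classes, 1 point per library with exact conditional intervals. Pericyte-like cells stay near 2 in all 4 libraries, and capillary endothelial-like cells go from 1.61 in sham to 1.25 at day 1. No day 7 point is drawn for fibroblast-like cells, which held 25 Col4a1 and 5 Col4a2 UMIs in that library.

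Endothelial cells change character along the vessel tree, and cells were placed in an arterial, capillary or venous zone by zone markers. From sham to day 7 the arterial zone held 393, 379, 516 and 883 cells and the capillary zone 3741, 5040, 3532 and 6943. The venous zone, gated on Nr2f2, Slc38a5, Vwf, Ackr1, Vcam1 and Il1r1, held 240, 478, 953 and 523. Lcn2, Lrg1, Cd14, Selp and Sele were among the 10 genes that set venous cells apart. The part of which cells were gated in the zone ratios was not tested. Summed basement membrane levels were 1008, 949, 658 and 784 CPM in the arterial zone, 786, 815, 689 and 798 CPM in the capillary zone and 528, 965, 612 and 527 CPM in the venous zone. The venous zone went furthest at day 1, at 1.83 times sham (1.64 to 2.04), and the arterial zone was lowest at day 3, at 0.652 times sham (0.605 to 0.703). The arterial ratio at day 1 turned from 0.941 to 1.24 with the limit of 6000 genes. In venous cells Col4a1 was at 353, 571, 332 and 292 CPM and Col4a2 at 168, 378, 250 and 224 CPM, and Col4a2 was past 2-fold higher at day 1, at 2.25 times sham (1.87 to 2.73). In sham, venous cells held Col4a1 at 0.749 times the capillary level (0.663 to 0.844), and at day 1 at 1.31 times (1.22 to 1.40). Unlike the whole class, venous cells were above sham at day 1 in each of the 4 bins of genes per cell, with 900, 595, 428 and 274 CPM in sham and 966, 888, 1006 and 845 CPM at day 1. The intervals overlapped in the bin up to 1000 genes.

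Several collagen genes were higher in the arterial zone than in the capillary zone, in every library. Col18a1, whose product is the source of endostatin, was at 256, 279, 198 and 169 CPM in arterial cells. In capillary cells it was at 11.3, 19.4, 22.4 and 9.40 CPM, so the arterial level was 22.7, 14.4, 8.81 and 18 times the capillary one. Col5a2, a type V chain, was at 97.2, 80.2, 70.2 and 60.4 CPM in arterial cells, and 22.6 to 63.6 times its capillary level. Col8a1, a chain of the short type VIII collagen of vessel walls, was at 25, 33.2, 15.6 and 29.5 CPM there and 10.7 to 12.4 times its capillary level. The arterial sum of the type VIII and X genes was 1.29, 0.611 and 1.17 times sham at days 1, 3 and 7, but 2.52, 1.14 and 1.79 times with the limit of 6000 genes. The arterial Col18a1 and Col5a2 levels were lower than in sham at day 7, at 0.661 (0.578 to 0.757) and 0.621 times (0.497 to 0.778).

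A pair of genes that stayed below 100 CPM also differed by zone and by day, and they were singled out after their values were seen. Col6a6, a type VI chain, was at 83.4, 7.44, 27.4 and 46.9 CPM in venous cells. It was 0.0892 times sham at day 1 (0.0452 to 0.163) and 0.329 times at day 3 (0.237 to 0.458), and every tMCAO library lay below sham. With the limit of 6000 genes days 1 and 3 were at 0.109 and 0.584 times sham. Capillary cells held 6, 0, 3 and 6 Col6a6 UMIs in all. The venous levels came from 67, 13, 90 and 70 UMIs in 240, 478, 953 and 523 cells. The part of which cells were gated as venous in the Col6a6 ratios was not tested. Col14a1, a fibril-associated chain, was at 16.8, 3.45, 13 and 18.1 CPM in endothelial-like cells as a whole. Its day 1 level was 0.310 times sham in the arterial zone (0.176 to 0.519) and 0.196 times in the capillary zone (0.128 to 0.291), and at day 7 both zones were again close to sham, at 0.911 (0.677 to 1.23) and 1.01 (0.819 to 1.24).

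**Figure D5:**
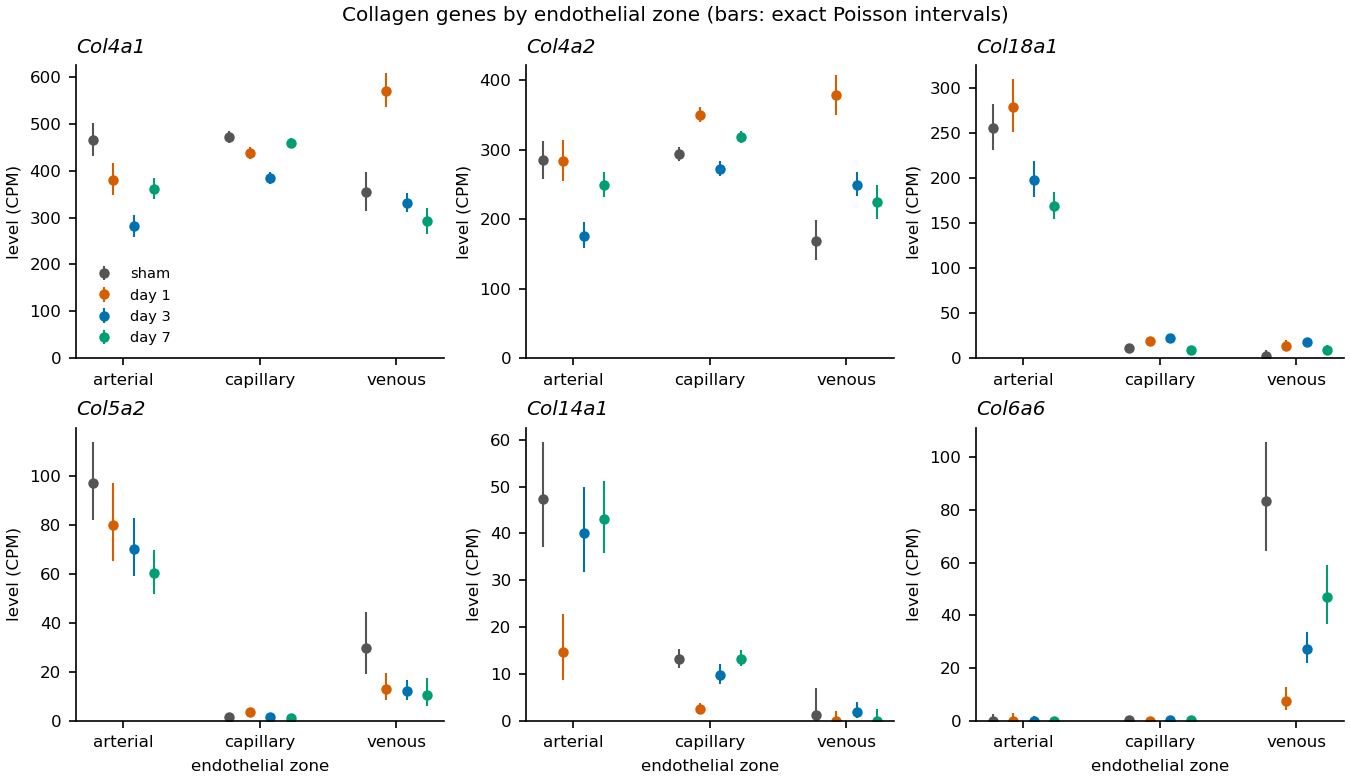
Level (CPM) of 6 collagen genes in arterial, capillary and venous endothelial-like cells, 1 point per library with exact Poisson intervals. Col18a1, Col5a2 and Col14a1 stand highest in the arterial zone and Col6a6 in the venous zone, where it goes from 83.4 CPM in sham to 7.44 CPM at day 1.

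The other basement membrane chains were spread unevenly over the vessel wall. Col4a5, whose chain joins that of Col4a6 in some basement membranes, was at 54.6, 69.9, 54.9 and 92.7 CPM in vascular smooth muscle-like cells and at 149, 233, 306 and 306 CPM in fibroblast-like cells. Smooth muscle-like cells held 4.12, 6.09, 5.33 and 4.33 Col4a5 UMIs for each Col4a6 UMI. Col18a1 in these cells was at 113, 194, 118 and 145 CPM, the day 1 value being 1.72 times sham (1.53 to 1.94). Col4a3 and Col4a4, the chains best known from the kidney filter and singled out here after their values were seen, were most frequent in pericyte-like cells among the vessel classes, where Col4a3 was at 38.0, 37.4, 44.6 and 81.8 CPM and Col4a4 at 40.2, 43.5, 55.5 and 49.0 CPM. Vascular smooth muscle-like cells as a class held basement membrane collagens at 885, 1144, 715 and 1070 CPM. Here too the day 1 direction depended on the number of genes per cell. Day 1 cells held 1092 CPM against 2157 CPM in sham in the bin up to 1000 genes and 1032 against 1132 CPM, with overlapping intervals, in the bin up to 2000 genes, which held 631 of the 752 day 1 cells, but 1594 against 859 CPM in the bin up to 3000 genes, which held 618 of the 727 sham cells.

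Fibroblast-like cells held basement membrane collagens at 2070, 1567, 3504 and 1363 CPM, with a ratio of 1.69 at day 3 (1.43 to 2.01). Day 3 was above sham in cells with more than 1000 and up to 2000 genes, at 3297 against 2585 CPM, and in those up to 3000 genes, at 3662 against 1499 CPM. It was at 6500 against 7327 CPM in cells with up to 1000 genes, which were 3 and 2, and at 788 against 1064 CPM in those with more than 3000 and up to 6000 genes, which were 7 and 9. Summed microglia markers in the fibroblast-like cells were 715, 728, 1165 and 612 CPM and also highest at day 3, as were the pericyte markers other than Vtn given above, and their part in the ratio was not tested. Col15a1, a multiplexin that links basement membranes to fibrils, was at 548, 165, 1224 and 230 CPM. It was below sham at days 1 and 7 (0.301 and 0.419 times) and above it at day 3 (2.23 times, 1.63 to 3.10). Its day 3 UMIs were spread over 28 of 34 cells, and without the cell that held most the level was 1146 CPM. Col4a1 in these cells was at 631, 505, 760 and 383 CPM, Col18a1 at 204, 342, 345 and 276 CPM and Col4a6 at 149, 60.7, 326 and 76.5 CPM. With the limit of 6000 genes Col15a1 at day 7 was at 1.07 times sham (0.747 to 1.52) and the basement membrane sum at 2.36 times (2.05 to 2.72), so the day 7 direction again turned with the limit, while day 3 was at 1.46 times (1.27 to 1.70).

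Type VI collagen forms beaded filaments near cells, and its common form joins chains of Col6a1, Col6a2 and Col6a3. It was highest in the Prg4/Nov/Slc47a1 cells, whose summed type VI level was 1090, 1692, 1517 and 1096 CPM against 659, 514, 424 and 337 CPM in fibroblast-like cells. The fibroblast-like sum was above sham at days 1 and 7 with the limit of 6000 genes, at 1.31 and 1.65 times in place of 0.780 and 0.511, and Col6a1 in the Prg4/Nov/Slc47a1 cells was at 1.37 times sham at day 7 in place of 0.798. In those cells Col6a1 was at 635, 914, 921 and 507 CPM and Col6a2 at 447, 756, 574 and 534 CPM. The day 1 ratios were 1.44 (1.13 to 1.85) and 1.69 (1.27 to 2.28), and day 3, with 18 cells, was not compared. Fibrillar collagens in these cells were at 1529, 1672, 3499 and 1557 CPM, and 2 fibroblast markers, Igfbp6 and Fbln1, were among the 10 genes that set them apart. Col6a5 was seen mainly in ependymal-like cells, at 257, 119, 113 and 224 CPM, where 9 of the 18 sham UMIs came from 1 of 21 cells. Its day 1 level was 0.463 times sham, or 0.858 times with the limit of 6000 genes. In vascular smooth muscle-like cells the type VI sum was low, at 8.68, 34.5, 13.9 and 13.8 CPM, but day 1 was 3.97 times sham (2.75 to 5.83). With the limit of 6000 genes day 1 was at 3.41 times (2.52 to 4.64) and day 3 at 4.00 times (3.06 to 5.29), or 3.29 and 2.22 times without the cell of each library with most fibrillar UMIs. Neuron-like cells held Col6a1 at 59.8, 81.4, 31.5 and 0 CPM, the last from 47 cells.

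Fibril-associated collagens sit on the surface of fibrils and do not form fibrils themselves. Col9a3 was the most abundant of them and was led by choroid plexus-like cells, at 578, 754, 857 and 839 CPM. All 3 tMCAO libraries lay above sham, at 1.30 (1.13 to 1.51), 1.48 (1.23 to 1.79) and 1.45 times (1.23 to 1.72), but with the limit of 6000 genes days 1 and 3 lay below sham, at 0.796 and 0.924 times. With at most 5% mitochondrial UMIs days 3 and 7 were at 1.12 and 1.01 times sham. The Col9a3 gene overlaps Tcfl5 on the other strand, as Col18a1 overlaps Slc19a1 and Col10a1 overlaps Nt5dc1, and whether the counts of these pairs were kept apart by strand was not stated in the sources used here. Oligodendrocyte progenitor-like cells held Col9a3 at 234, 201, 558 and 112 CPM, and also Col11a1 at 113, 77.9, 323 and 34.6 CPM, Col11a2 at 145, 90.6, 132 and 86.5 CPM and Col16a1 at 56.4, 108, 176 and 60.6 CPM. These cells, few in each library, thus held RNA for 4 chains better known from cartilage and other connective tissue. Col11a1 was 0.690 times sham at day 1 (0.379 to 1.34), but 1.61 times with the limit of 6000 genes. The day 3 values of these cells rest on 19 cells, and oligodendrocyte-like cells held Col9a3 at 41.8, 19.3, 46.6 and 28.0 CPM.

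Col12a1, whose product bridges fibrils in tissues under load, was at 409, 211, 809 and 857 CPM in fibroblast-like cells. It was lower than sham at day 1, at 0.517 times (0.356 to 0.760), and higher at days 3 and 7, at 1.98 (1.36 to 2.93) and 2.10 times (1.39 to 3.19). In the Prg4/Nov/Slc47a1 cells the same gene was at 345, 361, 401 and 295 CPM. Col16a1 in fibroblast-like cells was at 121, 84.9, 118 and 76.5 CPM and Col22a1 at 37.1, 9.71, 19.7 and 107 CPM, the last from 7 UMIs.

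The transmembrane collagens are anchored in the cell membrane. Col13a1 was at 334, 158, 513 and 444 CPM in fibroblast-like cells and was past 2-fold lower at day 1, at 0.472 times sham (0.309 to 0.730). Col25a1 was highest in the Prg4/Nov/Slc47a1 cells, at 227, 113, 162 and 451 CPM, and neuron-like cells held it at 16.1, 29.4, 0 and 0 CPM. Col23a1 was at 353, 201, 130 and 157 CPM in the Prg4/Nov/Slc47a1 cells and at 186, 109, 178 and 122 CPM in fibroblast-like cells. In astrocyte-like cells Col23a1 was at 52.4, 15.2, 142 and 7.62 CPM, and the day 3 value came from 20 of 85 cells.

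Type VIII collagen builds the hexagonal lattices of vessel walls and of the eye. Col8a1 was at 108, 129, 74.5 and 217 CPM in choroid plexus-like cells, where its day 1 ratio went from 1.20 (0.860 to 1.70) to 0.840 with the limit of 6000 genes, and at 47.0, 53.1, 45.2 and 72.3 CPM in pericyte-like cells. Col8a2 was highest in ependymal-like cells, at 100, 171, 90.7 and 157 CPM, and reached 50.2, 76.0, 44.7 and 58.9 CPM in choroid plexus-like cells. Col26a1, which has no settled group, was at 18.6, 72.8, 98.7 and 122 CPM in fibroblast-like cells, from 2, 30, 10 and 8 UMIs.

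Among glia and immune cells of the brain, Col27a1 in microglia-like cells stood out. It was at 125, 21.8, 89.7 and 108 CPM from sham to day 7, and day 1 was 0.175 times sham (0.116 to 0.263). The sham UMIs came from 41 of 133 cells and the day 1 UMIs from 42 of 473, with at most 3 in any 1 cell. Days 3 and 7 were at 0.719 (0.515 to 1.01) and 0.868 times sham (0.619 to 1.23). With the limit of 6000 genes they were at 0.53 and 0.714 times. In astrocyte-like cells Col1a2 was at 28.6, 128, 28.3 and 38.1 CPM, and 14 of 59 day 1 UMIs came from 1 cell, without which the level was 98.4 CPM. Col1a1 in the same cells was at 19.1, 62.8, 12.6 and 38.1 CPM.

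Over all 51 class-by-day comparisons with sham, a collagen gene had at least 50 UMIs in 296 cases and was past 2-fold, with 10 CPM added to both levels, in 22 of them, 9 higher and 13 lower. Over all genes the share past 2-fold was 3.72%, with 2.16% higher and 1.56% lower. With the limit of 6000 genes 10 of the 22 were still past 2-fold and 12 were not. The 12 were Col13a1 at day 1 (0.566 times sham), Col15a1 at days 3 and 7 (1.89 and 1.07), Col6a1, Col12a1 and Col1a1 at day 7 (1.61, 1.70 and 1.63) in fibroblast-like cells, Col3a1 at day 1 and Col23a1 at day 7 (1.42 and 0.580) in the Prg4/Nov/Slc47a1 cells, Col23a1 at day 3 (1.87) in astrocyte-like cells, Col4a1 and Col6a5 at day 1 (0.834 and 0.858) in ependymal-like cells, and Col6a6 at day 3 (0.584) in venous cells. Endothelial-like cells are counted in these comparisons both as a class and by zone. In fibroblast-like cells 2 of 14 collagen genes were past 2-fold lower at day 1 (Col15a1 and Col13a1), where 5.75% of all genes were, and 0 were higher, where 10.2% were. At day 3, 1 of 10 was higher (Col15a1), where 9.48% of all genes were, and 0 were lower, where 16.5% were, and at day 7, 1 of 8 was higher (Col12a1; all genes 6.11%) and 3 lower (Col15a1, Col6a1 and Col1a1; all genes 15.7%). These are small counts against a high background.

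In mural cells the background was low. In vascular smooth muscle-like cells Col3a1 was the only collagen gene of 17 past 2-fold at day 1, where 1.34% of all genes were higher, and 0 of 14 and 0 of 20 were at days 3 and 7 (all genes 0.277% and 0.78% either way). In pericyte-like cells 1 of 13 was higher at day 1 (Col5a3; all genes 1.53%), 0 of 15 past 2-fold at day 3 (all genes 1.12% either way) and 1 of 14 lower at day 7 (Col3a1; all genes 0.462%). In endothelial-like cells as a class, 0 of 15, 0 of 13 and 0 of 15 collagen genes were past 2-fold at days 1, 3 and 7, where 1.71%, 1.31% and 0.602% of all genes were. In the venous zone Col4a2 was the 1 of 3 that was higher at day 1 (all genes 1.98%) and Col18a1 the 1 of 5 that was higher at day 3 (all genes 2.5%), at 7.10 times sham (1.88 to 60.0) from 2 UMIs in sham, or 20.8 times with the limit of 6000 genes, and Col6a6 was lower at both days (all genes 3.49% and 2.41%). Arterial Col14a1 was the 1 of 6 lower at day 1 (all genes 2.18%). The remaining calls were Col3a1 higher at day 1 (all genes 7.81%) and Col23a1 lower at day 7 (7.33%) in the Prg4/Nov/Slc47a1 cells, Col1a2 higher at day 1 (5.44%) and Col23a1 higher at day 3 (8.19%) in astrocyte-like cells, Col27a1 lower at day 1 (7.67%) in microglia-like cells, and Col4a1 and Col6a5 lower at day 1 (4.22%) in ependymal-like cells.

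Collagen chains need a set of partner proteins to fold, to be cut and cross-linked, and to be degraded, and 71 genes in 6 lists of such partners were examined in the same way. Over all 6 lists, 3 of 30 genes with enough UMIs in fibroblast-like cells were past 2-fold at day 1, 5 of 21 at day 3 and 3 of 18 at day 7, where 16%, 26% and 21.8% of all genes were past 2-fold either way. Of 18 folding and modification genes, 14 to 17 had enough UMIs in pericyte-like and endothelial-like cells at each day and 0 were past 2-fold. In fibroblast-like cells 2 to 5 of them had enough, and P4hb, a subunit of prolyl hydroxylase, was past 2-fold higher at day 3 (167 to 454 CPM) and Ppib, a prolyl isomerase, lower at day 7 (826 to 352 CPM). Of the 11 collagen receptors, Mrc2, an uptake receptor, was past 2-fold higher at day 3 in fibroblast-like cells, and 0 were in pericyte-like or endothelial-like cells. By the size of the ratio, the 3 leading genes of all lists in fibroblast-like cells were Timp1, Ogn and Lama1. Timp1, an inhibitor of matrix metalloproteinases, was at 18.6 CPM in sham and 434 CPM at day 1, and at 0 UMIs at days 3 and 7. Ogn, a small leucine-rich proteoglycan, was at 65.0 CPM in sham and 529 CPM at day 1, and Lama1, a laminin chain, at 223 CPM in sham and 780 CPM at day 3. Of the 6 small leucine-rich proteoglycans, decorin (Dcn), which binds fibrils and was also a gate marker, was past 2-fold lower at all 3 days, and biglycan (Bgn) was past 2-fold lower at day 7.

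In pericyte-like cells 2 of 41 partner genes were past 2-fold at day 1, 0 of 42 at day 3 and 1 of 40 at day 7, where 2.79%, 1.12% and 1.89% of all genes were, and these 3 were Bmp1, Lamb1 and Timp3. Bmp1, which trims procollagen ends, was at 22.4 CPM in sham and 81.0 CPM at day 1, 3.62 times (2.22 to 6.20). Lamb1, a laminin chain of the basement membrane, was at 73.8, 181, 139 and 76.7 CPM, and Timp3 at 442, 808, 695 and 1295 CPM. Bmp1 and Lamb1 were thus highest at day 1 and Timp3 at day 7. In endothelial-like cells 1 of 49 was past 2-fold at day 1, 1 of 52 at day 3 and 1 of 52 at day 7, Timp1 at days 1 and 3 and Sparc at day 7, against the 1.71%, 1.31% and 0.602% of all genes given above. Timp1 was at 1.57, 17.2, 21.8 and 1.27 CPM, and Sparc, a collagen-binding protein, at 1867, 2127, 1169 and 775 CPM, the day 7 value being 0.415 times sham (0.407 to 0.423).

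Of the 44 genes, 27 reached 100 CPM in a class of at least 20 cells and are those described above by rule. The other 17 had these highest levels. In fibroblast-like cells Col5a1 reached 91.9 CPM at day 7, Col6a3 83.6 CPM in sham and Col7a1 58.2 CPM at day 1. In mural and endothelial cells Col4a3 reached 81.8 CPM in pericyte-like cells at day 7, Col28a1 11.7 CPM in the same cells, Col6a6 83.4 CPM in venous and Col14a1 47.3 CPM in arterial cells of sham. In glia and neurons Col20a1 reached 58.1 CPM in oligodendrocyte progenitor-like cells at day 1, Col9a1 17.3 CPM there at day 7, Col9a2 56.6 CPM in astrocyte-like cells at day 3, Col19a1 7.34 CPM, Col24a1 6.32 CPM and Col2a1 3.15 CPM in neuron-like cells. In choroid plexus-like cells Col4a4 reached 60.9 CPM at day 7 and Col17a1 21.1 CPM in sham, and Col6a4 reached 14.3 CPM in sham ependymal-like cells. Col10a1, the chain of growth plate cartilage, had 2 UMIs in all kept cells.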

How the data were processed

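The deposited tables hold UMI counts per gene and cell, 1 table per library, which the authors made with Cell Ranger from 10x 3′ libraries. The methods speak of normalized counts, but the deposited values are whole numbers that differ in total between cells, and they were used as raw counts. The submitters' processing notes give version 3.0.1 and the file headers 4.0.0. The methods name a human genome build, but the gene IDs are mouse. Of these, 30934 of 31053 matched the GENCODE annotation of GRCm38, all 44 collagen genes included. Per library the files held 69392755 to 104023002 UMIs, with medians of 2508 to 3732 UMIs per kept cell. The collagen genes, the partner lists and the markers were chosen with earlier results of these data known.

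The limits of the study were applied, so a cell needed 200 to 3000 genes and no more than 10% mitochondrial UMIs. A cell was given a class where at least 3 of its markers (2 for the Prg4/Nov/Slc47a1 cells) were detected, its marker score was at least 0.15, and that score led the next class by 0.1, and 2004 cells stayed without a class. No cell labels of the study were used here. UMIs were summed per class and library (numpy 2.4.6, scipy 1.17.1, pandas 2.3.3). CPM has exact Poisson intervals, ratios exact conditional intervals and shares exact binomial intervals, and a share of 0 is given with the limit set by 3 cells. Classes under 20 cells entered no ratio. Values are given for each collagen gene with at least 100 CPM in a class of at least 20 cells, and of the partner lists the 3 largest ratios past 2-fold per class are named, with further partner genes named after their values were seen. Doublets were kept. The calling step was run on simulated Poisson counts with known fold changes. These hold no spread between cells, libraries or animals, so the run checks the calculation and not the calls made here. The alternatives tried are 6000 genes per cell, 5% mitochondrial UMIs, a stricter gate, clusters made without collagen genes (scanpy 1.11.5), removal of likely doublets, equal weight per cell, subtraction of the oligodendrocyte-like level, removal of the cell with most collagen UMIs, a minimum of 20 UMIs and an addition of 2 CPM. Bins of genes per cell and levels within clusters were added after seeing the data.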

Additional observations from a re-analysis of the deposited data

Results flagged for a closer look

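Collagen sums moved in opposite directions in some classes or libraries, and none of these differences was tested, since each group had 1 library. In pericyte-like cells the fibrillar sum was 1.14 times sham at day 1 and 0.777 times at day 7, and in endothelial-like cells 1.45 and 0.821 times. The basement membrane sum in fibroblast-like cells was 0.757 times sham at day 1, 1.69 times at day 3 and 0.658 times at day 7. In vascular smooth muscle-like cells it was 1.29, 0.808 and 1.21 times sham at days 1, 3 and 7. In pericyte-like cells the basement membrane sum was 1.47 times sham at day 1 and 0.881 times at day 7, and in endothelial-like cells it was 1.09, 0.832 and 0.966 times at days 1, 3 and 7. Several of these values turned with the processing or with the number of genes per cell.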

How the results depend on the processing

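No paired analysis was possible because each group had 1 library. With 6000 genes, the fibrillar sum in fibroblast-like cells went from 1.01 to 1.77 times sham at day 1 and from 0.609 to 1.98 at day 7, the basement membrane sum in endothelial-like cells became 1.41, 0.871 and 1.05 at days 1, 3 and 7, and 42 of 493 collagen comparisons (22 different genes) were past 2-fold against 3.22% over all genes, in place of 22 of 296 (16 different genes) against 3.72%. At day 7 in fibroblast-like cells Col1a1 was then at 1.63, Col1a2 at 1.93, Col3a1 at 3.00 and Col15a1 at 1.07, and in choroid plexus-like cells Col9a3 was at 0.796 at day 1 and 0.924 at day 3, each on the other side of sham than before. With 5% mitochondrial UMIs the fibrillar sum in fibroblast-like cells was 1.03 at day 3, and the basement membrane sum was 1.13, 0.857 and 1.00 in endothelial-like cells and 1.63 at day 1 in pericyte-like cells. With the stricter gate the fibrillar sum in fibroblast-like cells was 1.16 at day 1, the basement membrane sum in pericyte-like cells 1.66, 1.10 and 0.976, and the count 12 of 226 against 3.25%. With every cell weighing equally the fibrillar sum in fibroblast-like cells was 0.915 at day 1, and the basement membrane sum was 0.922, 0.771 and 0.865 in endothelial-like cells and 1.27 at day 1 in pericyte-like cells. Clusters gave 0.847 in pericyte-like cells at day 3. A minimum of 20 UMIs gave a count of 52 of 497 against 5.21% and an addition of 2 CPM 46 of 296 against 5.88%. The causes were not tested. The doublet caller's own threshold marked 4.61% of cells at day 1 and at most 0.225% in the other libraries and had not worked, so the highest-scoring cells were left out instead, a choice made after seeing the data, which gave 1.21 for the fibrillar sum in fibroblast-like cells at day 1. The other 54 values of sums and of the count moved by less than their counting intervals, or less than 1.5 times for the count, as did 195 of 218 values of single genes, while 17 moved further, 7 of them across sham, and 6 whose interval had excluded 1 turned. The 23 to 103 fibroblast-like cells per library limit every value in that class.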

Other observations

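Single cells held many of the fibrillar UMIs of some other classes. Among 35 neutrophil-like cells of day 1, 84 of 85 fibrillar UMIs lay in 1 cell, and the class level without that cell was 19.3 CPM. Among the vascular smooth muscle-like cells of day 3 with more than 3000 genes, 83.8% of the 1749 fibrillar UMIs lay in 5 cells, and the cell with the most held 34 UMIs of fibroblast markers. These smooth muscle-like cells entered the levels with the limit of 6000 genes only, whereas the neutrophil-like cells were gated with the limit of 3000 genes.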
